A study of Mus musculus with 6 samples.

Results

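Heat shock proteins and their J-domain partners are the protein-folding chaperones of the cell. The genes described here are the protein-coding genes whose names place them in the HSP90, HSP70, HSP110, small heat shock protein, HSP60/HSP10 chaperonin or J-domain (Dnaj) families. There were 73 of them among the 55840 genes of the deposited table. By the main location of their proteins, 47 were assigned to the cytosol or nucleus, 14 to the endoplasmic reticulum (ER) and 8 to the mitochondrion. The other 4, among them Dnajc4, Dnajc22 and Dnajc28, were left unassigned. By family, 45 were J-domain genes, 11 HSP70, 8 small heat shock protein, 3 HSP110, 3 HSP90 and 3 chaperonin genes.

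The study sequenced RNA of mouse Tregs, the regulatory CD4 T cells that restrain immune responses and depend on the transcription factor Foxp3. Cells came from spleen and lymph nodes of WT mice and of mice labelled Exon2KO, which the series design calls Foxp3 delta 2, that is, with exon 2 of Foxp3 removed. There were 3 libraries of each genotype, and no treatment, time point, age, strain or sorting scheme was given for either. The table names its libraries by genotype plus 2, 6 or 20, and the same 3 numbers appear in both genotypes. No label says what the numbers stand for.

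Library totals ran from 17998216 to 21003496 counts. The T cell and Treg markers Cd3e, Cd4 and Foxp3 lay at 360 to 423, 632 to 820 and 602 to 925 CPM (counts scaled to library size). Their Treg list of 6 genes summed to 2999 to 3477 CPM in WT and 2767 to 3119 in Exon2KO, and 3 of the 6 (Ctla4, Ikzf2 and Il2ra) were called lower in Exon2KO. Summed markers of other cells, in CPM, were 31.1 to 32.0 in WT and 24.8 to 27.6 in Exon2KO for B cells, which did not overlap. Over all libraries they were 26.5 to 57.1 for myeloid, 3.21 to 15.5 for erythroid and 10.5 to 16.1 for CD8 T and NK cells. No gene of these 4 lists was called by genotype. The stromal list summed to 164 to 225 CPM, of which Pecam1 gave 163 to 225, and Col3a1 was at 0 counts. These are bulk libraries, so a change in the share of a cell type and a change in RNA per cell cannot be told apart.

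HSP70 proteins hold unfolded stretches of other proteins in a cycle driven by ATP. J-domain proteins bring them their substrates and speed the cycle, HSP110 proteins exchange their nucleotide, and HSP90 matures signalling proteins late in folding. In the cytosol, heat shock factor Hsf1 induces many of these genes under proteotoxic stress by binding heat shock elements, inverted repeats of GAA units. In the ER, the unfolded protein response induces Hspa5 (BiP), Hsp90b1 (GRP94) and their J-domain partners, partly through the ER stress response element. Mitochondria use their own HSP70 (Hspa9) and the chaperonin pair Hspd1 and Hspe1.

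The promoters of 5 members show these elements, and are given because their genes recur in the results below. The sequences are from RefSeq (GRCm38.p6) and run 5′ to 3′ on the strand of the gene, with the matches in capitals. Each lies within the 250 bases before the RefSeq start of the gene. Hspa1a and Hspa1b encode the stress-induced cytosolic HSP70. Their windows hold a heat shock element of 2 units (GAANNTTC), and 3 of their 250 bases differ (98.8% identity). The Hspa1a window is chr17:34972157-34972406 and the Hspa1b window is chr17:34959239-34959488, both on the minus strand and outside annotated exons.
Hspa1a: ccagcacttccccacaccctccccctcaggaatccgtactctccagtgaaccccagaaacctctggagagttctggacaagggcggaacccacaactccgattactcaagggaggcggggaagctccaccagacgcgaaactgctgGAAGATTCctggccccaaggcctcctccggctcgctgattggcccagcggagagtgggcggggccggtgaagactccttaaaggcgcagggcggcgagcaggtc
Hspa1b: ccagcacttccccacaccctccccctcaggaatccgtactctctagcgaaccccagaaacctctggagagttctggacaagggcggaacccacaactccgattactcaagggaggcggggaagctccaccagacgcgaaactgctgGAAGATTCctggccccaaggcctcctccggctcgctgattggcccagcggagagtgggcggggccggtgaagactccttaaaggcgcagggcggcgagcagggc

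Hsp90b1 carries the ER stress response element (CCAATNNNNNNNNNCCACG) at 2 places, once on each strand. The stretch shown is chr10:86705510-86705694 on the minus strand, the part of its window outside annotated exons. For Hspa5 and Hspe1 the match lies inside an exon annotated by GENCODE, so 30 bases around it are shown. These are chr2:34772019-34772048 for Hspa5, with the ER stress response element, and chr1:55088053-55088082 for Hspe1, with 2 overlapping heat shock elements of 3 units (GAANNTTCNNGAA). Both are on the plus strand.
Hsp90b1: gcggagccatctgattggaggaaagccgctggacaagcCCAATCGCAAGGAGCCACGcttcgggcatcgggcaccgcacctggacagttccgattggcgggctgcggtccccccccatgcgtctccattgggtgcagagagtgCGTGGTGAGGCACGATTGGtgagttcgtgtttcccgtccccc
Hspa5: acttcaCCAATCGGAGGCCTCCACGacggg
Hspe1: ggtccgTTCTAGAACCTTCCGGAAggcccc

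A window was found for 58 of the 73 members, and both strands were searched with the letters as spelled. The 3-unit heat shock element was present upstream of Dnajb6, Hspd1 and Hspe1, and in 0.466% of the 32851 windows of all genes. The 2-unit element, which every 3-unit match contains, was present upstream of 11 members and in 6.69% of all windows. The ER stress response element was present upstream of Dnajc3, Hsp90b1 and Hspa5, and in 0.113% of all windows. A match describes letters in these windows and does not show that a factor binds there.

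The members together took 0.930 ± 0.106% of the counts in WT and 0.895 ± 0.0841% in Exon2KO (SD, n = 3 each). Single libraries lay at 0.810%, 0.964% and 1.02% in WT 2, 6 and 20, and at 0.799%, 0.928% and 0.957% in Exon2KO 2, 6 and 20. Both libraries numbered 2 were the lowest, and the genotypes overlapped. Per length, as CPM per kilobase of the deposited gene length (CPM/kb), 3 genes made up 55.8% of the members' summed mean level, and 10 genes made up 76.0%. The leading 3 were Hsp90ab1, Hspa8 and Hspa5.

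In the cytosol, Hsp90ab1, the constitutive HSP90, had the highest level, at 716 ± 97.6 CPM/kb in WT and 691 ± 85.9 in Exon2KO (SD, n = 3 each). Hspa8, the constitutive HSP70 that also uncoats clathrin, followed at 464 ± 72.0 and 455 ± 63.2 CPM/kb. Hsp90aa1, the inducible HSP90, lay at 128 ± 32.3 and 122 ± 28.3 CPM/kb, and Dnajc7, a J-domain protein that links HSP70 with HSP90, at 50.2 ± 7.16 and 51.1 ± 4.37. The 6 libraries of Hsp90ab1, of Hspa8 and of Hsp90aa1 each lay apart from those of the next gene, while those of Dnajc7 overlapped with Dnajb1. Over the 6 libraries, Hspa1b ran from 4.27 to 16.6 CPM/kb and Hspa1a from 0.917 to 2.89 CPM/kb. Hspb1, the small heat shock protein HSP27, ran from 0.319 to 2.03 CPM/kb.

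In the ER, Hspa5 lay at 181 ± 39.4 CPM/kb in WT and 180.0 ± 43.4 in Exon2KO (SD, n = 3 each). Hsp90b1, the ER HSP90, followed at 59.8 ± 12.2 and 55.7 ± 7.48 CPM/kb. Dnajc3 (P58IPK), a J-domain partner of Hspa5, lay at 30.6 ± 1.161 and 34.1 ± 2.41 CPM/kb, and Dnajb11 (ERdj3), another, at 30.9 ± 3.82 and 28.8 ± 2.83. The libraries of Dnajc3 and Dnajb11 overlapped. Dnajb9 (ERdj4), which hands misfolded proteins to degradation, ran from 16.8 to 32.5 CPM/kb over the 6 libraries. Dnajc10 (ERdj5), a disulfide reductase, ran from 11.9 to 13.98 CPM/kb. Dnajc1 ran from 4.95 to 5.80 CPM/kb, and Hspa13, an HSP70-like ER protein, from 2.81 to 4.38 CPM/kb.

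In the mitochondrion, the co-chaperonin Hspe1 (HSP10) lay at 87.5 ± 7.80 CPM/kb in WT and 84.3 ± 3.57 in Exon2KO (SD, n = 3 each). Its partner Hspd1 (HSP60) lay at 71.4 ± 9.56 and 65.2 ± 7.17 CPM/kb. Hspa9 (mortalin) lay at 41.7 ± 2.16 and 38.8 ± 1.24 CPM/kb, and its J-domain partner Dnaja3 at 11.7 ± 0.929 and 11.3 ± 0.580. The 6 libraries of each of these 4 genes lay apart from those of the others. Among the unassigned genes, Dnajc4 lay at 21.4 ± 2.61 and 20.8 ± 3.14 CPM/kb and Dnajc28 at 0.791 ± 0.150 and 0.892 ± 0.203.

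**Figure D1:**
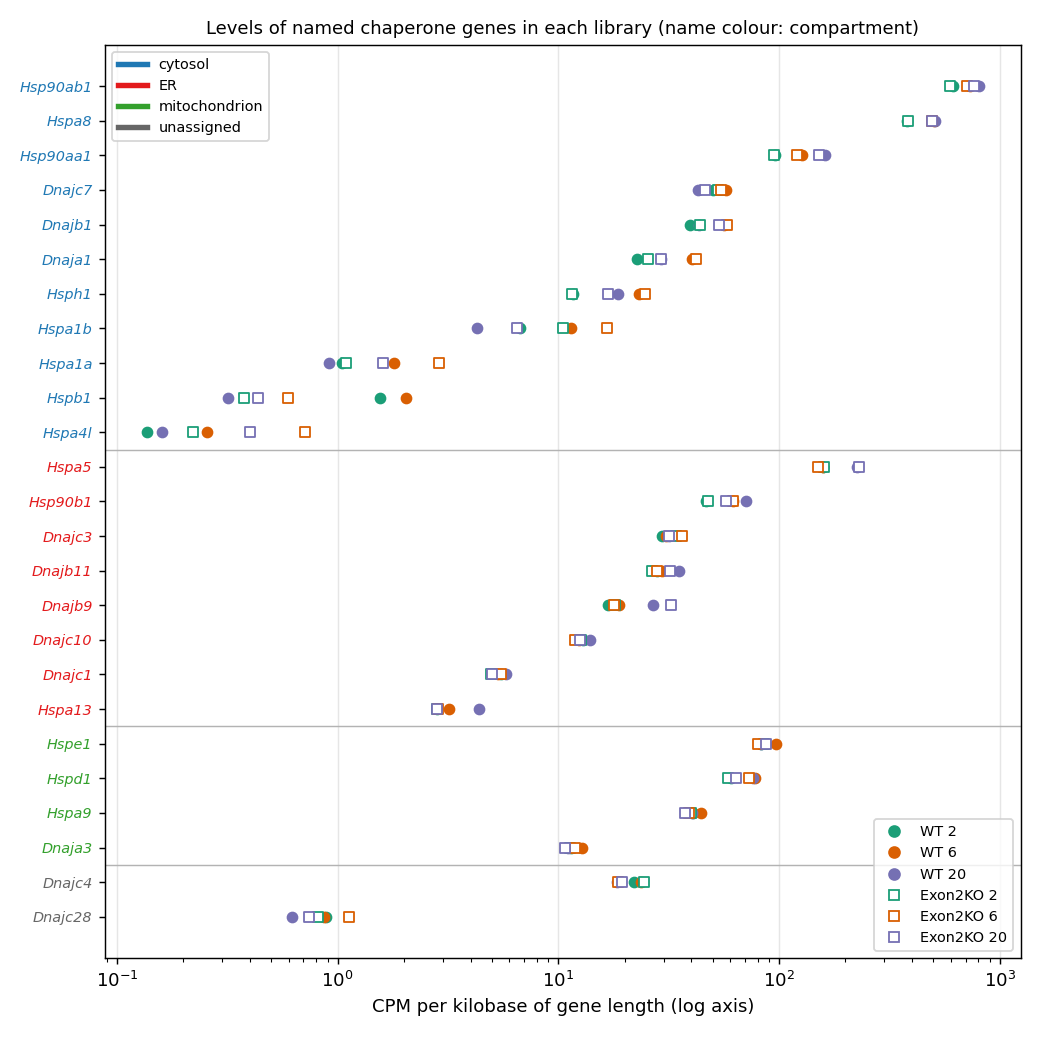
CPM per kilobase (log axis) of 25 tested members chosen by the naming rule, 1 point per library, filled circles for WT and open squares for Exon2KO, coloured by column number, with gene names coloured by compartment. Hsp90ab1 (597 to 805 CPM/kb) and Hspa8 (381 to 508 CPM/kb) stand above all others, and for Hsph1, Dnaja1 and Hspa5 points of the same colour lie together.

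The counting of several members is uncertain because they share sequence or position with other genes. The coding sequences of Hspa1a and Hspa1b were 99.4% identical. Dnajb13 (3428 counts over all libraries) overlaps Ucp2 on the opposite strand, which had 97157. Dnaja3 and Coro7, Dnajc7 and Cnp, Dnajc1 and Mllt10, and Dnajc19 and Fxr1 also overlap on opposite strands, as do Hspd1 and Hspe1 by 112 bases. These overlaps are between whole gene spans, introns included, and overlap of exons was not tested. No source used here states whether counting used strand, so some reads of these pairs inside an overlap may not be told apart. Overlaps on the same strand included Dnaja3 with Vasn (10814 bases), Hspa14 with Gm45902 (8264 bases) and Dnajc14 with Sarnp (2114 bases).

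Of the 73 members, 62 passed the filter on low counts and were tested, 37 cytosolic, all 14 of the ER, all 8 mitochondrial and 3 unassigned. The other 11 were low in every library. Hspb2, Hspb3, Hspb8, Dnajc5b and Dnajc5g had 0 counts, which allows up to 0.141 to 0.169 CPM per library (3 counts, counting error only). Dnajb3, Hspa1l, Dnajb7, Dnajb8, Hspb7 and Dnajc22 had 19, 17, 15, 11, 4 and 2 counts over all libraries.

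To ask which chaperone genes depended on exon 2 of Foxp3, Exon2KO was compared with WT by edgeR's quasi-likelihood test over 14919 genes. None of the 62 tested members was called at an adjusted p under 0.05, where 2.33% of all tested genes were (348 of 14919). At an unadjusted p under 0.05 there were 4 members (Hspa4l, Dnajc13, Dnajc8 and Hspb1) against 12.1% of all tested genes. DESeq2 likewise called 0 members, with 4 at an unadjusted p under 0.05, and limma-voom called 0, with 3. The median log2 fold change of the members was -0.013, with 27 positive and 35 negative, and that of all tested genes was 0.0084. The fitted change was within 1.2-fold for 54 of the 62, among them 31 of 37 cytosolic, 13 of 14 ER and 8 of 8 mitochondrial genes.

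Without the column number in the fit, the 95% intervals were wide for several members. For Hsp90ab1 the log2 fold change was -0.051 (95% interval -0.33 to 0.23), and for Hspa8 it was -0.028 (-0.34 to 0.29). For Hspa5 it was -0.0074 (-0.50 to 0.49), and for Hsp90b1 -0.10 (-0.47 to 0.27). Among mitochondrial genes, the values were, for Hspe1, -0.054 (-0.24 to 0.13), for Hspa9 -0.11 (-0.27 to 0.057), for Dnaja3 -0.048 (-0.25 to 0.16) and for Hspd1 -0.13 (-0.39 to 0.13), again on the log2 scale. The heat-inducible list held both narrow intervals, such as that of Hspe1, and wide ones, such as those of Hsph1, a cytosolic HSP110, at -0.012 (-0.98 to 0.96), and Dnaja1, a J-domain gene, at 0.073 (-0.61 to 0.75). In the ER, the interval of Dnajb9 was also wide, at 0.13 (-0.63 to 0.88). With the column number as a block the intervals were narrower, at -0.16 to 0.11 for Hsph1, -0.051 to 0.21 for Dnaja1, -0.15 to 0.13 for Hspa5 and -0.059 to 0.27 for Dnajb9.

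The WT and Exon2KO libraries did not overlap in CPM for 6 of the 62 members (9.68%), against 17.7% of all tested genes (2636). Of these, 5 are named here after their values were seen. Dnajc5 (cysteine string protein), Dnajc13 and Dnajc14 were higher in all 3 Exon2KO libraries, and Dnajc8 and Hspa9 were lower. Dnajc13, an endosomal J-domain protein, had 113, 110 and 108 CPM in WT 2, 6 and 20 and 127, 125 and 124 CPM in Exon2KO 2, 6 and 20. The difference of 0.19 (log2, SE 0.066) did not pass the threshold (edgeR adjusted p = 0.255). Dnajc8, a splicing-associated J-domain protein, had 113, 135 and 131 CPM in WT and 111, 105 and 108 CPM in Exon2KO. Its difference of -0.22 (log2, SE 0.084) also missed it (edgeR adjusted p = 0.304).

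**Figure D2:**
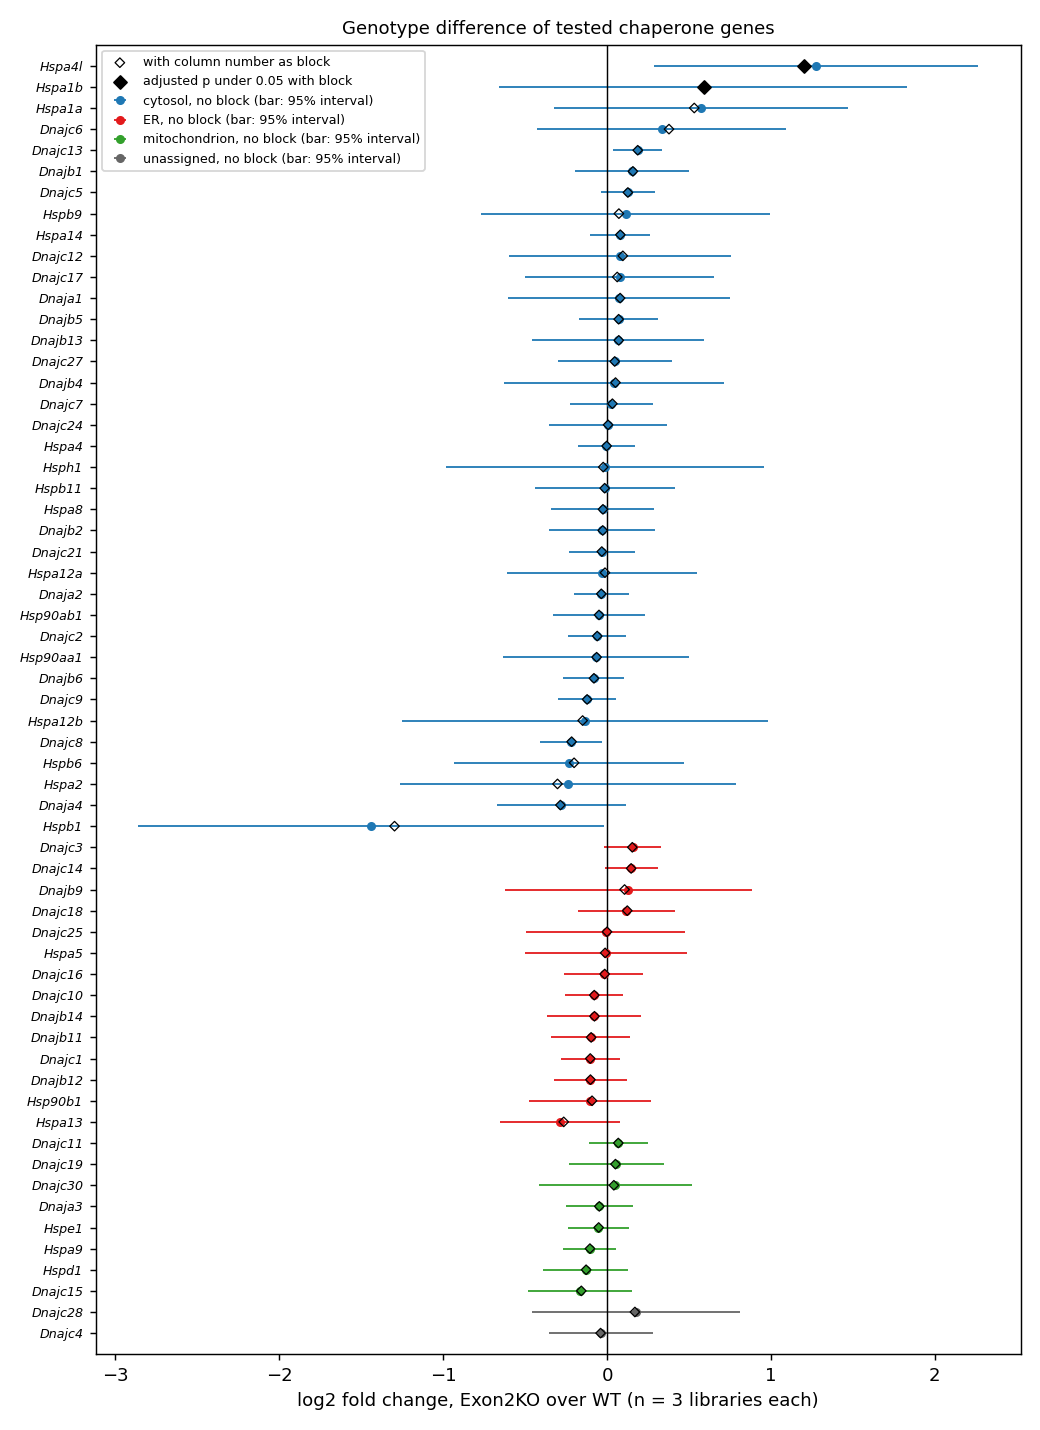
Log2 fold change of Exon2KO over WT for 61 of the 62 tested members (n = 3 libraries per genotype), as coloured points with 95% intervals by compartment, and as diamonds when the column number entered as a block. No member passed the adjusted threshold without the block, and the 2 filled diamonds, Hspa4l and Hspa1b, passed it with the block.

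Libraries with the same column number deviated together from their group means, so the comparison was repeated with the number as a replicate block. The common biological coefficient of variation then fell from 17.3% to 8.56%, and 9.72% of all tested genes were called (1450). Of the 62 members, 2 were called, both higher in Exon2KO, where 3.93% of all tested genes were called higher (586). These were Hspa1b and Hspa4l, both HSP70-superfamily genes of the cytosol. No ER, mitochondrial, HSP90, J-domain or small heat shock protein gene was called with the block. Among the markers of other cells, the same fit called Cd79b (-0.51, of B cells) and Lyz2 (-0.40, myeloid) lower and Pecam1 (0.23) higher. Their part in the member results was not tested.

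Hspa1b (ENSMUSG00000090877, chr17:34956436-34959238, minus strand, GRCm38) had 18.9, 32.1 and 12.0 CPM in WT 2, 6 and 20. It had 29.4, 46.4 and 18.3 CPM in Exon2KO 2, 6 and 20. The genotypes overlapped, but within each number Exon2KO was higher, by 0.64, 0.53 and 0.61 on the log2 scale for numbers 2, 6 and 20. The fitted log2 difference without the block was 0.59 (SE 0.49, adjusted p = 0.780 by edgeR). With it, the estimate was the same, at 0.59 (SE 0.093, adjusted p = 0.000564 by edgeR). When both libraries of a number were left out in turn under the block, the adjusted p was 0.0671 without number 2, 0.00197 without number 6 and 0.00439 without number 20. Leaving out only Exon2KO 6 without the block brought the change to 0.18, and leaving out only WT 6 to 1.03.

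Hspa1a (chr17:34969190-34972156, minus strand), whose promoter and coding sequence are nearly those of Hspa1b, had fewer counts. It had 3.11, 5.34 and 2.72 CPM in WT 2, 6 and 20 and 3.22, 8.57 and 4.78 CPM in Exon2KO 2, 6 and 20. Exon2KO 2 lay near WT 2, and the other pairs differed more, by 0.68 and 0.81 on the log2 scale. The fitted change was 0.57 (SE 0.40, edgeR adjusted p = 0.685), and 0.53 (SE 0.22, adjusted p = 0.164) with the block. Leaving out only Exon2KO 6 brought the unblocked change to 0.0956, and leaving out only WT 6 to 0.925.

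Hspa4l (ENSMUSG00000025757, chr3:40744495-40796103, plus strand), an HSP110 relative and nucleotide exchange factor, was among the least expressed tested members. WT 2, 6 and 20 held 30, 55 and 40 counts of it, and Exon2KO 2, 6 and 20 held 47, 164 and 84. That is 1.61, 3.03 and 1.88 CPM against 2.61, 8.41 and 4.73 CPM. Exon2KO was higher within each number, and Exon2KO 2 lay below WT 6. The fitted log2 difference without the block was 1.28 (SE 0.44, adjusted p = 0.240 by edgeR), and the block gave 1.20 (SE 0.24, adjusted p = 0.00465 by edgeR). Under the block the adjusted p was 0.0559 without number 2, 0.0637 without number 6 and 0.0343 without number 20. Leaving out Exon2KO 6 alone brought the unblocked change to 0.75. The authors' deposited table lists 68 members, 0 of them at an adjusted p under 0.05. Hspa4l has the lowest in the authors' deposited table, 0.0653, with a log2 change of 1.28.

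Hspb1 (ENSMUSG00000004951, chr5:135887919-135889563, plus strand) had the most negative fitted change of the tested members. WT 2, 6 and 20 held 30, 38 and 7 counts of it, and Exon2KO 2, 6 and 20 held 7, 12 and 8. The WT libraries numbered 2 and 6 stood above all others, and WT 20 was as low as Exon2KO. The log2 difference was -1.44 (SE 0.63, adjusted p = 0.401 by edgeR), and -1.30 (SE 0.51, adjusted p = 0.141) with the block. With the block and without both libraries numbered 20 it was -1.88 and was called (edgeR adjusted p = 0.0419). With the block and without both numbered 2 it was -0.9 and was not called (edgeR adjusted p = 0.61). Leaving out single libraries without the block gave -0.968 (without WT 6) to -1.91 (without WT 20).

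**Figure D3:**
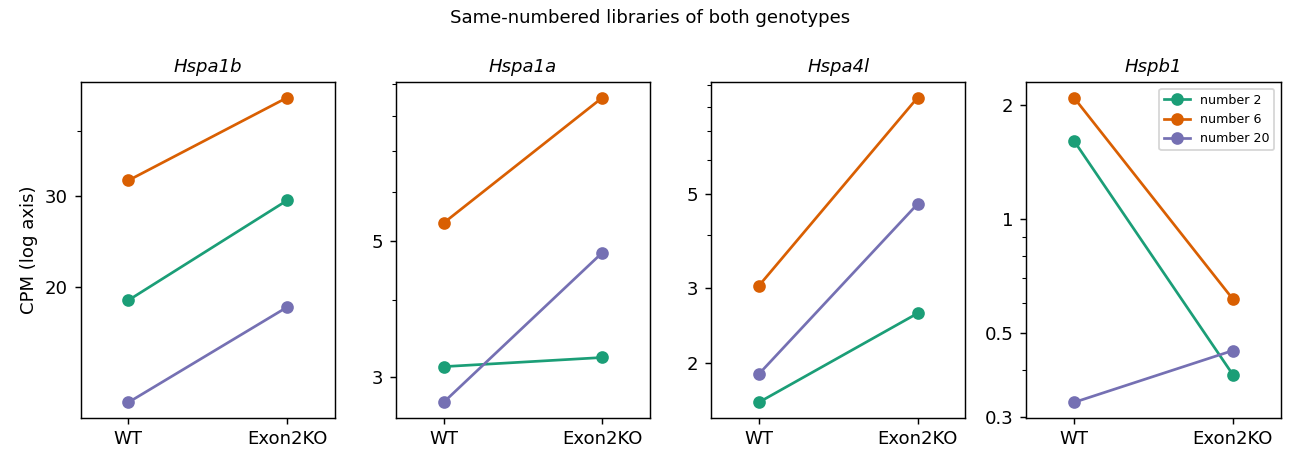
CPM (log axis) of Hspa1b, Hspa1a, Hspa4l and Hspb1 in WT and Exon2KO, with a line joining the libraries that share a column number. All 3 lines rise for Hspa1b and Hspa4l, the line of number 2 is nearly flat for Hspa1a (3.11 and 3.22 CPM), and for Hspb1 the line of number 20 runs against the other 2.

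More chaperone genes were called between column numbers than between genotypes. In the fit with both terms, 19 of the 62 members (30.6%) were called for a difference between numbers by the edgeR test, against 10.4% of all tested genes (1559). They were 14 of 37 cytosolic, 4 of 14 ER and 1 of 8 mitochondrial genes. All 3 HSP90 genes were among them, with 5 of 10 tested HSP70 and 8 of 39 tested J-domain genes. Of the 19, ranked by mean log2 CPM over both genotypes, 9 were highest in number 6, 9 in number 20 and 1 (Dnajb13) in number 2. By the same ranking, 14 were lowest in number 2. The labels do not say whether a number is a litter, an animal pair or a day, so no condition can be attached to these differences.

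The genes highest in number 6 were Hsph1, Dnaja1, Dnajb1, Hspa1a, Hspa1b, Hspa4l, Dnajc7, Dnajc17 and the mitochondrial Hspd1. Hsph1 (ENSMUSG00000029657, chr5:149614287-149636376, minus strand) had 84.8, 169 and 135 CPM in WT 2, 6 and 20 and 83.9, 180 and 123 CPM in Exon2KO. Each number took the same rank in both genotypes, and number 6 exceeded number 2 by 1.05 in log2 units (SE 0.077; joint edgeR test over the 3 numbers, adjusted p = 1.32e-06). Dnaja1 had 195, 348 and 253 CPM in WT and 221, 363 and 253 CPM in Exon2KO, and number 6 exceeded number 2 by 0.77 (SE 0.075; joint edgeR test over the 3 numbers, adjusted p = 1.72e-05). Dnajb1 (HSP40), the J-domain partner of the inducible HSP70, had 127, 181 and 139 CPM in WT and 140, 186 and 171 CPM in Exon2KO. It differed between numbers at an edgeR adjusted p of 0.00333. Hspa1b was highest in number 6 and lowest in number 20 in both genotypes, with number 6 above number 2 by 0.71 (SE 0.11; joint edgeR test over the 3 numbers, adjusted p = 3.68e-06).

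The genes highest in number 20 were the ER genes Hspa5, Hsp90b1, Dnajb11 and Dnajb9 and the cytosolic Hsp90aa1, Hsp90ab1, Hspa8, Dnajb4 and Hspa2. For Hsp90b1 this held in WT (188.6, 249.3 and 285.5 CPM in WT 2, 6 and 20). In Exon2KO its highest was number 6 (191.2, 250 and 232.3 CPM), and number 20 exceeded number 6 by only 0.048 in log2 units (SE 0.084). Hspa5 (ENSMUSG00000026864, chr2:34771970-34777547, plus strand) had 668, 670 and 958 CPM in WT 2, 6 and 20 and 674, 638 and 972 CPM in Exon2KO. Numbers 2 and 6 lay close together and number 20 exceeded number 2 by 0.52 (SE 0.079; joint edgeR test over the 3 numbers, adjusted p = 0.000224). Dnajb9 had the same shape, with 42.8, 48.0 and 68.5 CPM in WT and 46.0, 45.7 and 82.8 CPM in Exon2KO. Its number 20 exceeded number 2 by 0.77 (SE 0.095; joint edgeR test over the 3 numbers, adjusted p = 6.83e-05). Hsp90aa1 was lowest in number 2 and highest in number 20 in both genotypes, with 379, 502 and 632 CPM in WT and 373, 474 and 595 CPM in Exon2KO. Its number 20 exceeded number 2 by 0.71 (SE 0.076; joint edgeR test over the 3 numbers, adjusted p = 5.90e-05). Hspa8 was low in number 2 (1639 and 1645 CPM) and similar in numbers 6 and 20 (2113 to 2184 CPM).

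**Figure D4:**
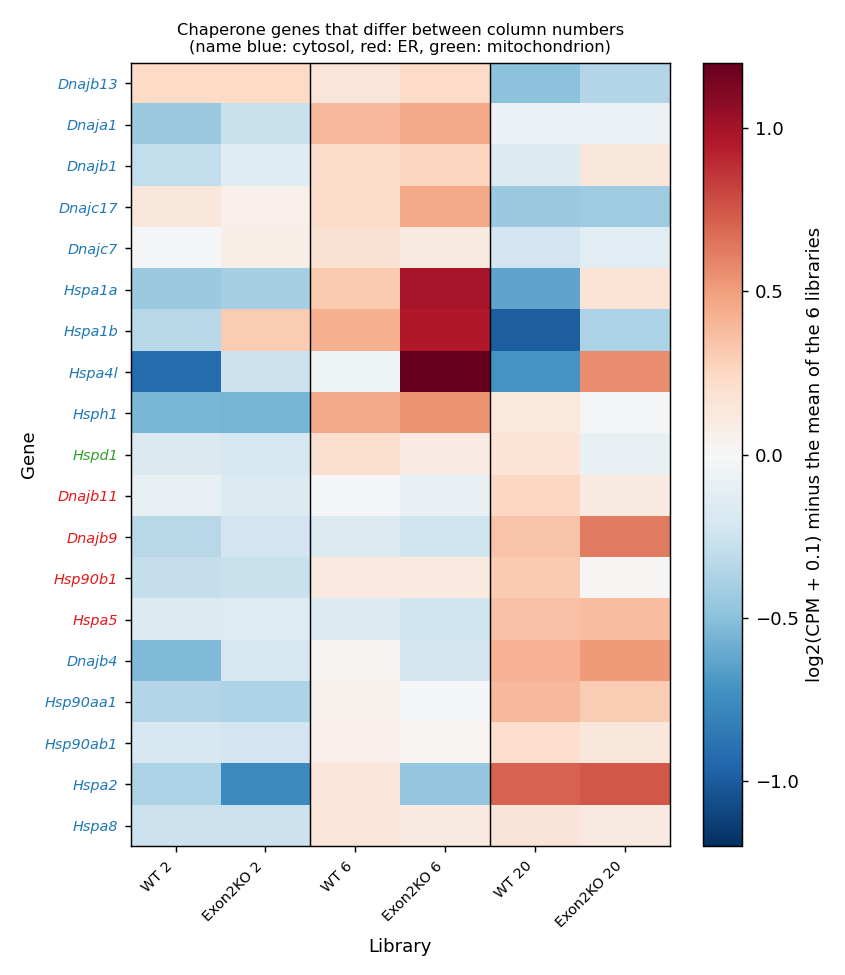
Log2(CPM + 0.1) minus the mean of the 6 libraries for the 19 members called for a difference between column numbers, with libraries ordered by number and red for higher. By mean log2 CPM over both genotypes, genes from Dnaja1 to Hspd1 are highest in number 6 and those from Dnajb11 to Hspa8 in number 20. Neighbouring WT and Exon2KO columns of the same number are alike for most genes.

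Of the 10 genes of the heat-inducible list, 8 were called for number, where 10.4% of all tested genes were. For genotype, 0 were called without the block and 1 (Hspa1b) in the same blocked fit, where 9.72% of all tested genes were called. Summed over that list, the libraries numbered 2 had 2730 and 2777 CPM and the others 3579 to 3754 CPM. Most of each sum was Hspa8, with 1639 and 1645 CPM in number 2 and 2113 to 2184 CPM in the others. Of the 8 members on the ER stress list, 4 were called for number and 0 for genotype with or without the block. The list summed to 1695 and 1756 CPM in the libraries numbered 20 against 1289 to 1366 CPM in the others. Hspa5 was the largest part of each sum, at 958 CPM in WT 20, 972 CPM in Exon2KO 20 and 638 to 674 CPM in the others. Other genes differed by number as well. The list of 13 immediate early genes, which cells switch on within minutes of stimulation, summed to 7165 and 7943 CPM in WT 20 and Exon2KO 20 and to 3969 to 4455 CPM in the other 4, and 9 of the 13 were called for number. By genotype 0 of them were called, and with the block 2 were called higher (Ier2 and Egr1) and 2 lower (Dusp1 and Fosb). The list of 15 proliferation genes summed to 1307 and 930 CPM in WT 20 and Exon2KO 20 and to 557 to 702 CPM in the others, with 14 of 15 called for number. By genotype the fitted change was negative for all 15 (median -0.39), with 0 called, and the block called 6 lower (Mki67, Top2a, Ccna2, Aurkb, Birc5 and Ccnb1). The myeloid list of 5 genes summed to 57.1 and 48.8 CPM in number 20 and 26.5 to 31.1 CPM in the others, with 2 of 5 called (Lyz2 and S100a8) and none at 0. The erythroid list of 4 genes was highest in number 6, at 15.5 and 10.9 CPM in WT and Exon2KO against 3.21 to 9.24 CPM in the others, and 2 of its 3 tested genes (Hba-a1 and Hbb-bs) were called for number. Of the CD8 and NK cell list, 1 of 4 was called (Cd8a), and of the Treg list, 3 of 6 (Foxp3, Ikzf2 and Ctla4). The part of any of these in the chaperone differences was not tested.

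Other genes of the folding pathways were taken from lists of textbook members. Of the 5 heat shock factor genes, 3 were tested and 0 were called by genotype, with the block or by number, and Hsf3 was at 0 counts. The fitted change was negative for all 3. Hsf1 lay between 80.9 and 102 CPM in all libraries, and its log2 difference was -0.0054 (SE 0.094, adjusted p = 0.996 by edgeR). That of Hsf2 was -0.19 (SE 0.13, edgeR adjusted p = 0.680). Hsf4, at 2.36 to 6.28 CPM, had the largest, at -0.63 (SE 0.27, edgeR adjusted p = 0.396). With the block, Hsf4 was at -0.65 (SE 0.22, edgeR adjusted p = 0.0711). Of the 13 HSP70 exchange and partner factors, 0 were called by genotype. With the block 1 was called lower, Bag3, a stress-induced partner of HSP70 in selective autophagy (-0.55, SE 0.15, edgeR adjusted p = 0.0336). This 1 of 13 does not exceed the 9.72% of all tested genes called with the block. By number 1 was called, St13 (HIP), an HSP70-binding cochaperone (edgeR adjusted p = 0.00195), where 10.4% of all tested genes were.

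Of 15 tested HSP90 co-chaperone genes, 0 were called by genotype with or without the block. By number, 6 were called (Stip1, Fkbp4, Fkbp5, Chordc1, Ahsa1 and Ptges3), against 10.4% of all tested genes. Stip1 (HOP), which links HSP70 to HSP90, had 123, 196 and 163 CPM in WT 2, 6 and 20 and 127, 188 and 158 CPM in Exon2KO (edgeR adjusted p = 0.000113). It took the same order over the numbers as Hsph1. Of the 14 genes of the cytosolic chaperonin and prefoldin list, 0 were called by genotype and 3 by number (Cct8, Cct6a and Pfdn2). Of 12 other mitochondrial folding genes, 0 were called in any of these tests, and their sum ran from 640 to 703 CPM.

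Of 25 other ER folding and unfolded protein response genes, 0 were called by genotype, 3 were called lower with the block and 4 differed by number (Calr, Pdia6, Creld2 and Sdf2l1). Of all tested genes, 9.72% were called with the block in either direction (3.93% higher and the rest lower) and 10.4% by number. Compared in either direction, the shares of this list are near that background. The 3 called lower with the block were Atf6, Derl3 and Pdia6. Atf6, a membrane-bound sensor of unfolded proteins, had 28.2, 27.5 and 41.3 CPM in WT 2, 6 and 20 and 18.6, 22.2 and 22.6 CPM in Exon2KO. Its log2 difference was -0.62 (SE 0.17, adjusted p = 0.123 by edgeR), and -0.60 (SE 0.11, adjusted p = 0.00205) with the block. Derl3, a factor of ER-associated degradation, had 4.99, 4.35 and 5.73 CPM in WT and 1.39, 2.10 and 2.65 CPM in Exon2KO. Its change was -1.30 (SE 0.29, edgeR adjusted p = 0.0550), and -1.31 (SE 0.25, adjusted p = 0.00280) with the block. Pdia6, a disulfide isomerase, changed by -0.29 with the block (SE 0.059, edgeR adjusted p = 0.00414). The ER members Hspa5 and Hsp90b1 were not called beside them, at -0.012 (SE 0.065, adjusted p = 0.946) and -0.092 (SE 0.069, adjusted p = 0.504) in the same blocked edgeR fit.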

How the data were processed

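The authors deposited 1 table of 55840 genes. Per the file headers it holds whole-number counts per library, gene lengths, and the authors' comparison: scaled group means (a signal), log2 fold changes, and p-values raw and adjusted. The 6 other per-library columns were not used, so levels per length were computed as CPM per kilobase of deposited gene length, which also replaced FPKM in the rule for naming genes. The submitters' processing notes name HISAT2 2.0.5, StringTie 1.3.3b, featureCounts 1.5.0-p3, DESeq2 1.16.1 and mm10 (GRCm38).

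Counts were tested with edgeR 4.0.16 (R 4.3.3): filterByExpr, TMM, robust quasi-likelihood fit, two-sided, Benjamini-Hochberg over all 14919 tested genes, called at an adjusted p under 0.05. CPM use TMM-scaled library sizes. A second fit added the column number as a block, and its number terms were tested together. Deviations of same-numbered libraries from their group means correlated across genes at 0.271 (2), 0.369 (6) and 0.494 (20). The pairing comes from column names only. Alternatives were other filters, scalings, DESeq2 1.42.0, limma-voom 3.58.1, and libraries left out. Values of 1 member, which stays in the counts of members, are not reported here. Scripts were tested on simulated data. Libraries of the same genotype differed by more than sampling noise in each pair (chi-square per degree of freedom 8.70 to 26.4). The titles label the libraries as biological replicates, without saying that they came from separate animals, so p-values measure the spread between these libraries.

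Columns carry numbers that titles do not, so each was assigned to a genotype, not a titled sample. Coding identity used the longest open reading frames in GENCODE release 21. Members, compartments, lists and tests were chosen with earlier results of these data known. Named members were those called, the 4 highest per length in each compartment, the heat-inducible and ER stress lists, the 5 lowest p between numbers, the 3 largest uncalled changes, and up to 6 called with the block. Listed genes that are not members were named where called, except early and proliferation genes called by number alone. Others were named after their values were seen (Hsf1, Hsf2, Hsf4, members without overlap or at an unadjusted p under 0.05, and examples by number).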

Additional observations from a re-analysis of the deposited data

How the results depend on the processing

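Over all genes, 348 were called in the comparison as reported, 617 with no count filter, 649 with DESeq2 and 1450 with the replicate block. Leaving out single libraries gave 86 to 314. Without both libraries of number 2, 6 or 20 it was 2, 46 or 362. With the block it was 277 without number 2, 1441 without number 6 and 900 without number 20. These pairs left out under the block were chosen once the data had been seen. Called members, 0 as reported, became 2 with the replicate block, and 1 and 3 with the block without numbers 6 and 20 (Hspa1b, then also Hspa4l and Hspb1). It stayed at 0 in all other alternatives. The members' median lay between -0.0585 (without WT 2) and 0.0256 with single libraries left out. The 19 members called by number became 15 with DESeq2 and stayed at 19 in the other 6 alternatives run.

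Of 25 named members with a fold change, 11 kept their direction in all alternatives that tested them. With single libraries left out, log2 fold changes crossed 0 for Dnaja1 (-0.174 to 0.319), Dnaja3 (-0.0968 to 0.0203), Dnajb11 (-0.186 to 0.00427), Dnajb9 (-0.218 to 0.355), Dnajc28 (-0.0343 to 0.289), Dnajc4 (-0.173 to 0.0442) and Dnajc7 (-0.0727 to 0.137). They also did for Hsp90aa1 (-0.256 to 0.126), Hsp90ab1 (-0.156 to 0.0410), Hsp90b1 (-0.256 to 0.0356), Hspa5 (-0.227 to 0.186), Hspa8 (-0.155 to 0.0783), Hspe1 (-0.0938 to 0.0245) and Hsph1 (-0.341 to 0.228). Without both libraries numbered 6, Dnajc4 was 0.109, Hspa5 0.0120 and Hspe1 0.0505, and with the block as well 0.105, 0.0109 and 0.0506. Without both numbered 20, Dnajc7 was -0.00439, Hsp90b1 0.0104 and Hsph1 0.0532, and with the block as well -0.00148, 0.0110 and 0.0365. Dnajc7 was -0.00121 without both numbered 2. The cause was not tested. The block changed the call of no other tested member.

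No paired analysis was possible because the columns do not carry the titles' replicate numbers, other than the replicate block on the column number. Hspb1 could not be tested with at least 10 counts in every library or without both libraries numbered 6. With 3 libraries per genotype and no block, some intervals are wide (Hsph1 -0.98 to 0.96). Hspb1 and Hspa4l had few counts at this depth, and 11 members too few to be tested. Leaving out 1 library also unbalances the numbers between genotypes.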
